A study of Mus musculus with 32 samples.

Results

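The genes described here encode the machinery that forms chromatin loops, and comprise 10 of the 17440 genes listed in the deposited tables. They were chosen by name: Ctcf, the cohesin ring genes Rad21, Smc1a and Smc3, the ring-bound subunits Stag1 and Stag2, the loader gene Nipbl, the release factor gene Wapl, and Pds5a and Pds5b. All 10 were listed in each of the 5 tables and passed the filter of a mean of at least 10 in every table. Cohesin is a ring-shaped complex that is loaded on DNA by NIPBL, extrudes loops, and is taken off by WAPL with the PDS5 proteins. CTCF, a zinc finger protein bound to specific DNA sites, stops the moving ring, so that loop ends lie at CTCF sites. Mouse embryonic stem cells depend on both CTCF and cohesin for growth, and degron tags allow either protein to be removed within hours.

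Polyadenylated RNA was sequenced from 32 libraries of E14 mouse embryonic stem cells, in 16 groups of 2 libraries. In every group either CTCF or RAD21 was fused to AID, the auxin-inducible degron, which sends a protein to the proteasome once an auxin is added. CTCF AID cells received 500 uM indole-3-acetic acid (IAA) for 0, 12 or 24 h, and in a condition labelled serum for 0 or 12 h, while RAD21 AID cells received 1 uM of the auxin analogue 5-Ph-IAA for 0, 12 or 24 h. Further CTCF AID cells carried a control hairpin or one against Chd4, which encodes the remodelling ATPase of NuRD. Others overexpressed a control, wild-type CTCF or mutated CTCF, each without and with IAA. Of those titled with IAA, the control and mutated CTCF cells are annotated with 500 uM for 12 h. No auxin time or dose is annotated for the hairpin groups. The labels do not state which mutation CTCF carried, what drove the overexpression, or how many clones were used, and the growth protocol gives a serum-free medium also for the serum libraries. In 4 libraries the treatment label goes against the title: both libraries of mutated CTCF that by title had no IAA carry a 12 h IAA label, and both of wild-type CTCF that by title had IAA carry a label without it. Groups follow the titles, so each with-against-without-IAA value of the wild-type and mutated CTCF cells rests on the titles.

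Values are the authors' normalised counts, and library totals lay between 15364584 and 19642332. Because each table had its own scaling, no test crosses tables; limma was run on log2(value + 1), with p-values adjusted over every gene tested (Benjamini-Hochberg) and a call made below 0.05. Differences are log2(value + 1) differences unless a sentence says otherwise, every group had n = 2, and nothing in the labels says that the 2 libraries came from separate cultures, so p-values may measure technical spread. The AID tag acts on protein, so transcript levels do not check the degradation. No cells without a degron received an auxin, so effects of the auxin itself and of protein loss cannot be told apart. Below, CTCF loss and RAD21 loss name the auxin treatment of the respective AID cells. The transcripts do check the other 2 manipulations: Chd4 stood at 9923 and 9526 in the control hairpin libraries and at 3379 and 3729 in the Chd4 hairpin libraries, and Ctcf was raised in all libraries titled as overexpressing it. All 8 markers of pluripotent cells were listed in every library.

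Of the 10 genes, 7 had a promoter window in the RefSeq table (GRCm38.p6, 250 bases before to 50 after a gene's start), and Rad21, Stag2 and Nipbl had none. On both strands of these 7 windows, the CTCF core motif, AAGATGGC (YY1), the NRF1 motif and CCGGAAGT (ETS family) had 0 matches. Of all 32851 windows, 2.43%, 2.75%, 0.971% and 3.89% held these motifs, in the same order. The letters GCCATTTT, chosen after the windows had been read, lay in 4 of the 7 windows, on either strand, against 1.54% of all windows. Read on the other strand they are AAAATGGC, which differs from the YY1 letters above at 1 of its letters. The 0 matches of YY1 therefore hold for the exact letters searched.

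The 30 bases around each match are shown because they hold the letters that these start regions were seen to share. They are read on the plus strand, which is the strand of all 4 genes, with the 8 letters in capitals (reverse complement in Stag1).
Ctcf, chr8:105636537-105636566: accgcgccgccGCCATTTTgtgtccgagcc
Smc3, chr19:53600385-53600414: ccgcggccgccGCCATTTTgtttggccaca
Pds5b, chr5:150673779-150673808: ctgctcttggcGCCATTTTgaagcggagag
Stag1, chr9:100643235-100643264: gagaagctctaAAAATGGCgggcggcaacc
The match began 10 bases after the RefSeq start of Ctcf, at the RefSeq start base of Smc3, 37 bases before the RefSeq start of Pds5b and 202 bases before that of Stag1. The GENCODE gene models of Ctcf, Smc3 and Pds5b start elsewhere, at 105636568, 53600398 and 150673739. The Pds5b match thus lies inside its gene model, and the Ctcf match before the start of its own. The Stag1 window, chr9:100643198-100643497, lies inside the GENCODE gene model, which starts at 100597798. It thus covers a later start than that of the gene model. The windows of Smc1a, Wapl and Pds5a lacked the letters. A match is a description of these letters and was tied to no measurement.

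Per kilobase of annotated exon, Rad21 was the most abundant of the 10 transcripts in all 5 untreated groups, at 1994 ± 0.777 normalised counts per kb (mean ± SD) in CTCF AID cells and 2319 ± 5.77 in the overexpression control. Smc3, Wapl, Ctcf and Smc1a followed, from 963 ± 14.2 for Smc3 to 575 ± 9.81 for Smc1a in CTCF AID cells. Nipbl, Stag1, Stag2, Pds5a and Pds5b were the lowest in every untreated group, and in CTCF AID cells they lay between 303 ± 11.4 for Nipbl and 231 ± 8.8 for Pds5b. In CTCF AID cells the libraries of each of the first 5 genes lay above those of the next gene in the order, and the 5 lowest genes overlapped with their neighbours. The order of the genes after Rad21 varied between groups: Wapl (1164) exceeded Smc3 (1059) in the overexpression control, and Ctcf (1044) exceeded Wapl (807) in serum. In RAD21 AID cells Rad21 stood at 1025 ± 26.5 per kb and its libraries overlapped with those of Smc3 at 1008 ± 11.2. The place of Pds5a rests on its exon length of 19.3 kb. Its mean before division by length was 4640 in untreated CTCF AID cells, against 3277 for Ctcf and 3317 for Smc1a.

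After 12 h of IAA in CTCF AID cells, 5 of 10 genes rose (Ctcf, Smc1a, Smc3, Stag1 and Nipbl) and 0 fell, where 9.39% of all genes tested were called higher and 8.4% lower. The median difference of the 10 genes was 0.20, against 0.0005 over all genes. At 24 h, 4 rose (Smc1a, Stag1, Nipbl and Wapl) and 1 fell (Rad21), against 11.7% called higher and 10.8% lower over all genes, with a median of 0.15 against 0.0024. Both times share the untreated libraries. Between 24 and 12 h limma called 0 of the 10, with 0.0876% of all genes called higher and 0.0584% lower. There 3 of the 10 had an unadjusted p under 0.05, against 1929 of all 13699 genes. In the serum libraries, 3 rose (Ctcf, Stag1 and Wapl) and 2 fell (Nipbl and Pds5a), against 7.73% higher and 9.25% lower over all genes. The summed pluripotency markers there were 67832 and 68030.0 without and 57280.3 and 58213 with IAA, and their part was not tested. Fewer cells of a kind and less RNA per cell cannot be told apart in these bulk libraries. Leaving out 1 library at a time left 0 to 2 genes called at 12 h, 0 to 3 at 24 h and 1 to 6 in serum.

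Degradation of RAD21 removes the closing subunit of the ring itself. At 12 h 3 rose (Ctcf, Stag1 and Pds5b) and 1 fell (Smc1a), where 6.66% of all genes rose and 6.35% fell. At 24 h only Stag1 rose and 0 fell, against 6.54% higher and 7.16% lower over all genes. From 12 to 24 h Smc1a and Wapl rose and Ctcf fell, where 7.67% of all genes were called higher and 8.26% lower. The median of the 10 genes was -0.02 at 12 h and 0.07 at 24 h, against -0.0006 and 0.0007 over all genes. Without 1 library at a time, the calls among the 10 came to 0 to 1 at 12 h, 0 to 1 at 24 h and 2 to 3 between the times.

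In the overexpression table, IAA raised the same number of the 10 genes in each background: 4 in the control (Ctcf, Smc3, Stag1 and Pds5b), 4 with wild-type CTCF (Ctcf, Stag1, Nipbl and Pds5b) and 4 with mutated CTCF (Ctcf, Smc3, Stag1 and Pds5b), and 0 fell in each. Over all genes, 12.8% were called higher and 12.5% lower in the control, 11.1% and 10.3% with wild-type CTCF, and 8.31% and 7.92% with mutated CTCF. The medians of the 10 genes were 0.04, 0.05 and 0.03 in the same order. Overexpression itself, without IAA, raised only Ctcf among the 10 with the wild-type form (0.502% of all genes called higher, 0.395% lower), and Ctcf and Nipbl with the mutated form (3.31% higher, 2.24% lower). Between mutated and wild-type CTCF limma called 0 of the 10 without IAA, where 3.49% of all genes were called higher and 2.73% lower. An unadjusted p under 0.05 was found for 3 of the 10 and for 3032 of all 13938 genes tested. The same comparison with IAA also gave 0, where 1.08% of all genes were called higher and 1.18% lower. There 5 of the 10 had an unadjusted p under 0.05, against 2212 of all 13938 genes. Without 1 library at a time the calls after IAA came to 2 to 4 in the control, 2 to 3 with wild-type and 2 to 3 with mutated CTCF.

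The Chd4 hairpin lowered most of the machinery: 8 of the 10 genes fell, Stag1 alone rose, and Nipbl was not called, at 0.03 (adjusted p = 0.571). The response was broad over the transcriptome, with 33.5% of all genes called higher and 33.8% lower. The median of the 10 was -0.31, against 0.0062 over all genes. Part of this depended on the scaling: under quantile normalisation 6 fell and 2 rose, with Ctcf and Stag2 no longer called. Nipbl was then called higher by limma, at 0.15 (adjusted p = 0.0234). Over all genes, the alternative settings that kept every library called 7833 to 10973 in this comparison. Marker genes of other cell types moved with this comparison. Within the hairpin table, the summed level of the 2-cell-like markers was 36 and 35.8 with the control and 686 and 682 with the Chd4 hairpin. The trophoblast markers summed to 305 and 256 with the control and 744 and 828 with the Chd4 hairpin, and the mesoderm markers to 279 and 186 with the control and 452 and 483 with the Chd4 hairpin. Of these lists of 4, 5 and 4 genes, 3, 2 and 3 were listed in the hairpin libraries; Tcstv1, Cdx2, Hand1, Elf5 and Mesp1 were not. The sums were also higher for primitive endoderm (68.7 and 75.9 with the control and 115 and 131 with the Chd4 hairpin), neural (984 and 936 with the control and 1665 and 1681 with the Chd4 hairpin) and feeder cells (316 and 239.5 with the control and 569.6 and 659 with the Chd4 hairpin). The pluripotency markers summed to 124942 and 123242 with the control and 77462 and 78745 with the Chd4 hairpin. Marker sums of other cell types also moved after auxin. The neural sum rose from 925 and 937 at 0 h to 1473 and 1437 at 12 h in CTCF AID cells. In the overexpression control it rose from 1492 and 1535 without to 2483.5 and 2399 with IAA. It fell in serum, from 2136 and 2147 to 2039 and 2073. At 24 h in RAD21 AID cells it fell from 1266 and 1199 to 1011 and 961. Eomes stands in both the trophoblast and the mesoderm list. The part of these markers in the fall of the machinery was not tested.

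**Figure D1:**
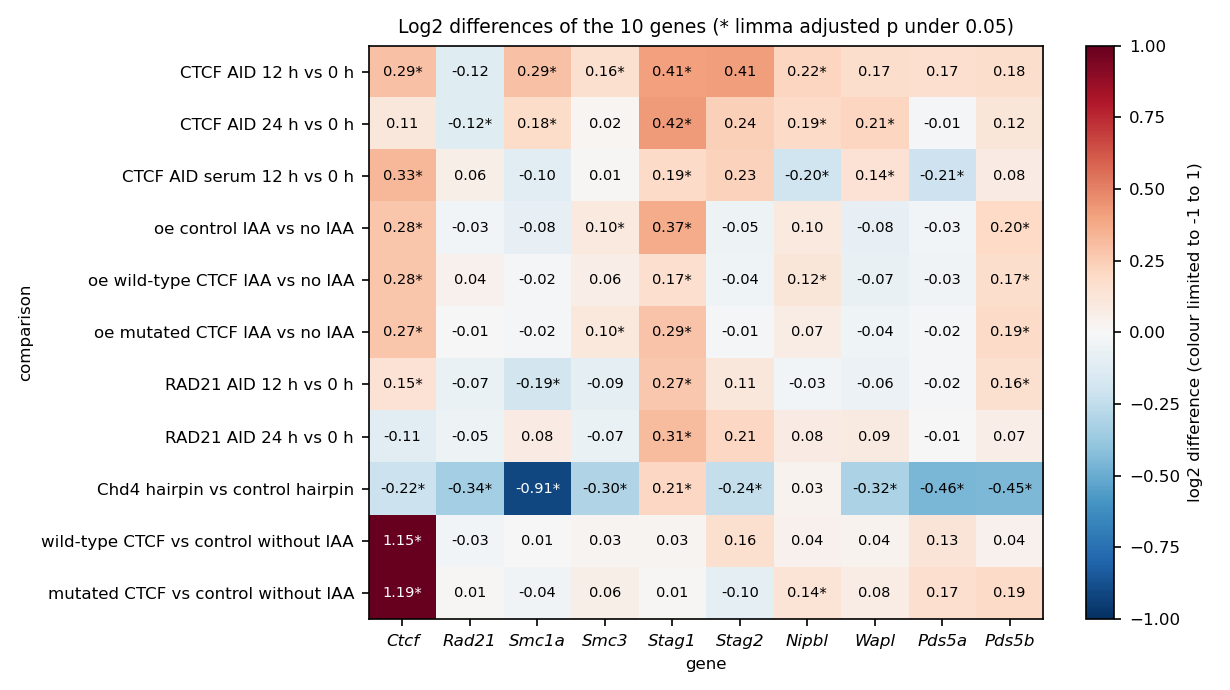
Log2 differences of the 10 genes (columns) in 11 comparisons (rows), with red for higher and blue for lower values and an asterisk at a limma adjusted p under 0.05. Stag1 is called higher in all 8 auxin rows and in the hairpin row, Ctcf exceeds 1 only under overexpression, and the Chd4 hairpin row holds the largest fall, -0.91 for Smc1a.

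Ctcf (ENSMUSG00000005698.15, chr8:105636568-105682922, plus strand; positions are from GENCODE gene models on GRCm38) encodes the protein that was degraded or overexpressed. Its libraries held 3300.4 and 3253 normalised counts at 0 h, 4148 and 3881 at 12 h and 3478 and 3607 at 24 h of IAA. All treated libraries lay above the untreated ones, and the rise passed at 12 h, 0.29 (SE 0.05, adjusted p = 0.00834), while the value at 24 h was 0.11 (adjusted p = 0.146). In serum the libraries held 5214 and 4933 without and 6481 and 6292 with IAA, a rise of 0.33 (SE 0.03, adjusted p = 0.000952). Loss of RAD21 gave 3536 and 3541 at 0 h, 3998 and 3834 at 12 h and 3292 and 3244 at 24 h. Ctcf thus stood highest at 12 h and lowest at 24 h, with the rise at 12 h of 0.15 (adjusted p = 0.047) and the fall from 12 to 24 h, at -0.26 (SE 0.04, adjusted p = 0.00578) both called, and a value of -0.11 (adjusted p = 0.09) at 24 h against 0 h. The rise at 12 h in CTCF AID cells was lost without 12 h replicate 1 (adjusted p = 0.061) or 0 h replicate 2 (0.0564), and that in RAD21 AID cells without any 1 of the 4 libraries (adjusted p = 0.0925 to 0.197). The rise at 12 h of RAD21 loss was also not called by limma under quantile normalisation (adjusted p = 0.0647) or with only the compared groups in the fit (0.0664). A replicate block in the fit ended it too (0.0642). The calls in serum and from 12 to 24 h of RAD21 loss held whichever library was left out. Exons of Agrp and Gm5914 overlap Ctcf on the other strand, and the strand used in counting is not given in the sources used here.

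In the overexpression control Ctcf stood at 4134 and 4332 without and 5185 and 5098 with IAA. With wild-type CTCF the libraries held 9275 and 9481 without and 11630.5 and 11077 with IAA, and with mutated CTCF 9589 and 9712 without and 11758 and 11590.3 with IAA. Overexpression therefore raised Ctcf by 1.15 (wild-type; SE 0.03, adjusted p = 2.5e-08) and 1.19 (mutated; SE 0.03, adjusted p = 1.7e-08), and the forms differed by 0.04 (95% interval -0.03 to 0.11). Reads of the endogenous and the introduced gene cannot be told apart in these values. IAA raised Ctcf by 0.28, 0.28 and 0.27 in the control, wild-type and mutated cells (adjusted p = 0.000112, 0.000221 and 0.000292), which corresponds to 1.21-fold in each. On the linear scale the increase was 908 ± 108 normalised counts (SE) in the control, 1976 ± 295 with wild-type and 2024 ± 104 with mutated CTCF, so it was larger where Ctcf started higher. Limma tests of whether the response to IAA differed from the control called 0 of the 10 genes for either form. Of all genes, 1.1% were called higher and 0.309% lower for wild-type, and 1.05% and 0.581% for mutated CTCF. An unadjusted p under 0.05 was found for 1 and 0 of the 10, against 1644 and 1739 of all 13938 genes. For Ctcf the difference of responses was not called, at -0.01 for wild-type (95% interval -0.11 to 0.09, adjusted p = 0.982) and -0.01 for mutated CTCF (-0.11 to 0.09, adjusted p = 0.976). These calls of Ctcf held whichever library was left out. In the hairpin table Ctcf fell from 4577 and 4568 to 3982 and 3893, -0.22 (adjusted p = 0.0038), a call that quantile normalisation ended, at -0.10 (adjusted p = 0.0732).

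Stag1 (ENSMUSG00000037286.15, chr9:100597798-100959375, plus strand) encodes a subunit that sits on the cohesin ring and was the gene of the 10 called most often. It rose in all 8 comparisons of auxin with no auxin and under the Chd4 hairpin, from 0.17 to 0.42, with the treated libraries above the untreated ones in each. For comparison, 6.54 to 12.8% of all genes were called higher in each of the 8 auxin comparisons, 2 pairs of which share their untreated libraries. Most of the 8 repeat the same treatment, IAA in CTCF AID cells. The share of all genes called higher in all 8 was not counted, so the shares per comparison do not set Stag1 apart. In CTCF AID cells Stag1 stood at 3649 and 3158 at 0 h, 4669 and 4373 at 12 h and 4803 and 4313 at 24 h, and rose by 0.41 (SE 0.08, adjusted p = 0.0157) and 0.42 (SE 0.08, adjusted p = 0.0117). In RAD21 AID cells it stood at 3453 and 3344 at 0 h, 4003 and 4183 at 12 h and 4381 and 4071 at 24 h, and rose by 0.27 (SE 0.05, adjusted p = 0.0154) and 0.31 (SE 0.05, adjusted p = 0.00826). The rise was already present at 12 h in both lines, and the 24 h libraries overlapped with the 12 h libraries in each. Serum libraries held 2669 and 2711 without and 3101 and 3055 with IAA, 0.19 (adjusted p = 0.00914), and hairpin libraries 3814 and 3993 with the control and 4437 and 4568 with the Chd4 hairpin, 0.21 (adjusted p = 0.00709). The calls rested on single libraries in part: at 12 h of CTCF loss the call was lost without 12 h replicate 1 (adjusted p = 0.102), 12 h replicate 2 (0.0587) or 0 h replicate 2 (0.0796), and at 24 h without 24 h replicate 1 (0.0528) or 0 h replicate 2 (0.0608). It was lost at 12 h of RAD21 loss without any 1 of the 4 libraries (adjusted p = 0.0542 to 0.09), at 24 h without 0 h replicate 2 (0.0536), in serum without 12 h replicate 1 (0.0827) or 2 (0.0642), and under the Chd4 hairpin without Chd4 replicate 2 (0.0556) or control replicate 1 (0.0661). The hairpin value was 0.32 under quantile normalisation.

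In the overexpression table the rise of Stag1 after IAA held whichever library was left out. The control libraries held 4256 and 4110.4 without and 5477 and 5365 with IAA, and those with wild-type CTCF 4298 and 4246 without and 4824 and 4799 with IAA. Those with mutated CTCF held 4305 and 4123 without and 5287 and 5009.6 with IAA. Without IAA the libraries of the 3 kinds of cells overlapped, and with IAA those with wild-type CTCF were the lowest. The rises were 0.37 (SE 0.04, adjusted p = 4e-05) in the control, 0.17 (SE 0.04, adjusted p = 0.00721) with wild-type and 0.29 (SE 0.04, adjusted p = 0.000477) with mutated CTCF. The difference of the wild-type response from the control response was -0.20 (95% interval -0.32 to -0.09), with an unadjusted p of 0.00246 and an adjusted p of 0.103 over all genes, so it was not called. For mutated CTCF the difference was -0.09 (95% interval -0.20 to 0.03, adjusted p = 0.548).

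**Figure D2:**
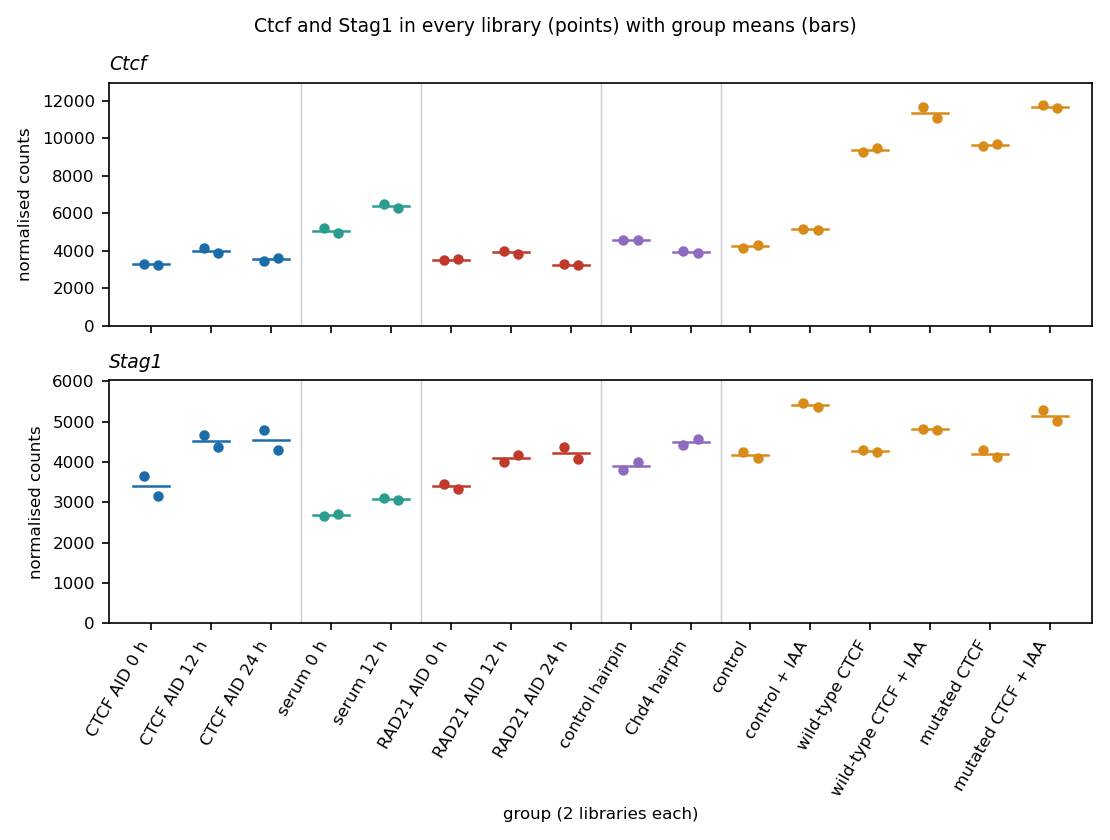
Normalised counts of Ctcf (upper panel) and Stag1 (lower panel) in each of the 32 libraries (points) with the mean of each group (bars), coloured by table and separated by grey lines. Treated libraries of Stag1 lie above untreated ones in every pair of groups, and Ctcf rises from 4233 in the control to 9378 and 9650.4 under overexpression, with a further step after IAA.

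Stag2 (ENSMUSG00000025862.14, chrX:42149317-42277185, plus strand) encodes the alternative subunit at the same place on the ring, and the fit over all groups called it in none of the 8 auxin comparisons. Its libraries held 1678 and 2730.0 at 0 h, 3346 and 2433 at 12 h and 2307 and 2754 at 24 h of IAA in CTCF AID cells, where all groups overlapped and the replicates lay far apart. The interval of the 12 h difference ran from -0.14 to 0.97 and so held the 0.41 of Stag1. In serum all treated libraries lay above the untreated ones, at 3382 and 2869 without and 3678 and 3638 with IAA, 0.23 (adjusted p = 0.0618). The rise was called without 0 h replicate 1, at 0.35 (adjusted p = 0.00132). After RAD21 loss the value was 0.11 (adjusted p = 0.6) at 12 h, called without 12 h replicate 2 (0.0403). At 24 h it was 0.21 (adjusted p = 0.316), called with only the compared groups in the fit (0.0496). In the overexpression control, whose libraries lay closer together (2416 and 2613 without and 2483 and 2378 with IAA), the difference was -0.05 (95% interval -0.22 to 0.12), and the upper bound lay below the 0.37 of Stag1. Under the Chd4 hairpin Stag2 fell from 2691 and 2734 to 2435 and 2170.0, -0.24 (adjusted p = 0.0152), opposite to Stag1. That call was lost without Chd4 replicate 2 (adjusted p = 0.0554) or control replicate 2 (0.0553) and under quantile normalisation (-0.15, adjusted p = 0.0908). Within a library, which no scaling affects, the log2 ratio of Stag2 to Stag1 was -0.82 and -0.65 in the control without IAA, and -1.14 and -1.17 with it. In CTCF AID cells the ratio overlapped between times, at -1.12 and -0.21 at 0 h and -0.48 and -0.85 at 12 h. The serum libraries alone had ratios above 0 (log2), 0.34 and 0.08 without and 0.25 and 0.25 with IAA. Exons of Gm37564 overlap Stag2 on the other strand.

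Rad21 (ENSMUSG00000022314.10, chr15:51962240-51991747, minus strand) encodes the subunit that closes the ring, and its level set the RAD21 AID line apart. The 6 libraries of that line held 4076 to 4417 (median 4225), and the 26 other libraries 7588 to 10035 (median 9321), with no overlap. These levels come from tables scaled separately, so the ratio of Smc3 to Rad21 within each library was also taken: it was 1.24 to 1.32 (median 1.27) in the RAD21 AID line and 0.597 to 0.845 (median 0.659) elsewhere. The gap was present before auxin was added. Cell line, table and degron target all differ together between these libraries and cannot be told apart, and no test across tables was made. In that line Rad21 went from 4417 and 4259 at 0 h to 4076 and 4194 at 12 h and 4255 and 4131 at 24 h, with the treated libraries below the untreated ones and differences of -0.07 (95% interval -0.16 to 0.02, adjusted p = 0.265) and -0.05 (-0.14 to 0.04, adjusted p = 0.428).

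**Figure D3:**
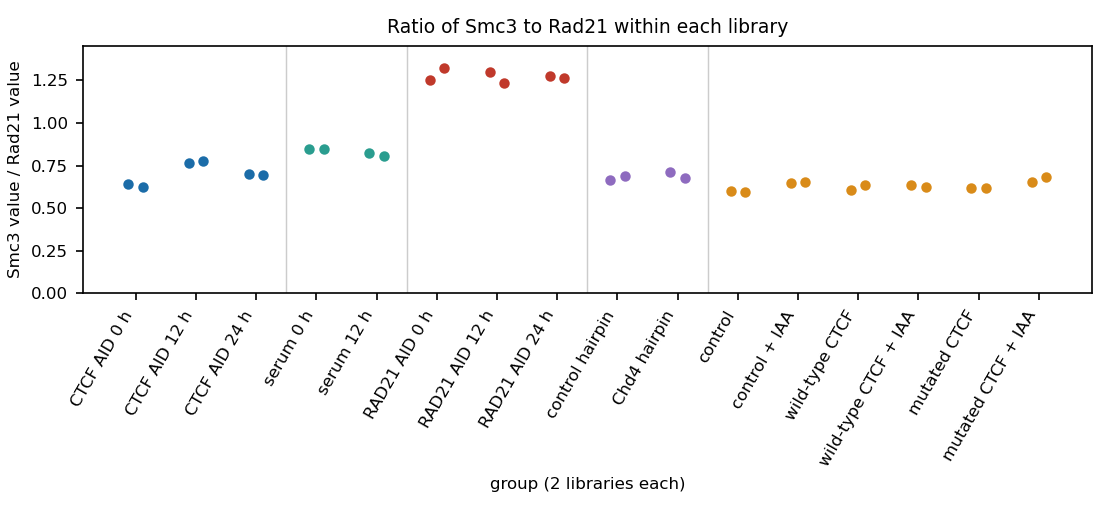
Ratio of the Smc3 value to the Rad21 value (vertical axis, linear) within each of the 32 libraries, by group and coloured by table. The 6 RAD21 AID libraries lie between 1.24 and 1.32 at all times, and the 26 others between 0.597 and 0.845.

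In CTCF AID cells Rad21 stood at 8435 and 8439.9 at 0 h, 7866 and 7611 at 12 h and 7854 and 7633 at 24 h, so that all treated libraries lay below the untreated ones. The value was -0.12 (adjusted p = 0.0527) at 12 h, and the fall at 24 h was called at -0.12 (adjusted p = 0.0463). The 24 h call was lost without any 1 of the 4 libraries (adjusted p = 0.0575 to 0.169) and with only the compared groups in the fit (0.0729). The 12 h value was called under quantile normalisation, at -0.18 (adjusted p = 0.0111), with a table mean of at least 100 (0.047) and with only the compared groups in the fit (0.0444). In serum the libraries held 7849 and 7798 without and 8078 and 8218 with IAA, 0.06 (adjusted p = 0.122). Quantile normalisation called it higher, at 0.11 (adjusted p = 0.0138). No overexpression or IAA comparison of the overexpression table called Rad21, and its 12 libraries there lay between 9309 and 10035. Under the Chd4 hairpin Rad21 fell from 9987 and 9333 to 7683 and 7588, -0.34 (SE 0.05, adjusted p = 0.000669), and this held whichever library was left out, while quantile normalisation brought the fall to -0.19.

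Smc1a (ENSMUSG00000041133.11, chrX:152016428-152062694, plus strand), one of the pair of ATPase arms of the ring, had the largest fall of the 10 genes. The Chd4 hairpin took it from 4983 and 4926 to 2634 and 2638, -0.91 (SE 0.04, adjusted p = 8.3e-06), and the value lay between -0.92 and -0.90 when 1 library was left out. In CTCF AID cells it moved the other way, from 3277 and 3357 at 0 h to 4244 and 3899 at 12 h and 3724 and 3798 at 24 h, with rises of 0.29 (adjusted p = 0.00995) and 0.18 (adjusted p = 0.0457). With a replicate block in the limma fit the 24 h rise was not called (adjusted p = 0.0542). Smc1a was not called in the other CTCF AID cultures, and the difference between cultures was not tested: the value was -0.10 (adjusted p = 0.152) in serum and -0.08 (adjusted p = 0.171) in the overexpression control. Loss of RAD21 gave 3999 and 4087 at 0 h, 3480.0 and 3632 at 12 h and 4355 and 4218 at 24 h. Smc1a thus fell at 12 h, at -0.19 (adjusted p = 0.0259) and rose from 12 to 24 h by 0.27 (SE 0.04, adjusted p = 0.00581), opposite in sign to Ctcf over the same times, and the second of these calls held whichever library was left out. The fall at 12 h was lost without any 1 of the 4 libraries (adjusted p = 0.0647 to 0.119). The rise at 12 h of CTCF loss was lost without 12 h replicate 1 (0.0639) or 0 h replicate 1 (0.0689), and that at 24 h without any 1 library (0.0908 to 0.185) and under quantile normalisation (0.0869).

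Smc3 (ENSMUSG00000024974.10, chr19:53600398-53645833, plus strand), the other ATPase arm, stood at 5394 and 5282 at 0 h, 6039.5 and 5922 at 12 h and 5519.8 and 5303 at 24 h of CTCF loss. It rose at 12 h by 0.16 (adjusted p = 0.0301), and at 24 h it overlapped with the untreated libraries, at 0.02 (adjusted p = 0.762). IAA also raised it in the overexpression control, from 5895 and 5844 to 6274 and 6293, 0.10 (adjusted p = 0.0175), and with mutated CTCF, from 6108 and 6145 to 6559 and 6616, 0.10 (adjusted p = 0.0189). With wild-type CTCF the value was 0.06 (adjusted p = 0.105), and the difference of that response from the control response did not pass, -0.03 (adjusted p = 0.786). The Chd4 hairpin lowered Smc3 from 6617 and 6428 to 5455 and 5122, -0.30 (adjusted p = 0.00134), and this held whichever library was left out, while quantile normalisation brought it to -0.15. The 12 h call was lost without any 1 of the 4 libraries (adjusted p = 0.1 to 0.156) and under quantile normalisation (0.07, adjusted p = 0.248). The calls in the control and with mutated CTCF were lost in 3 (IAA replicate 1 or 2, untreated replicate 2) and 4 of the 4 fits that left out 1 library (adjusted p = 0.0481 to 0.0796 and 0.0647 to 0.106 over all 4 fits) and with only the compared groups in the fit (0.079 and 0.0627).

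**Figure D4:**
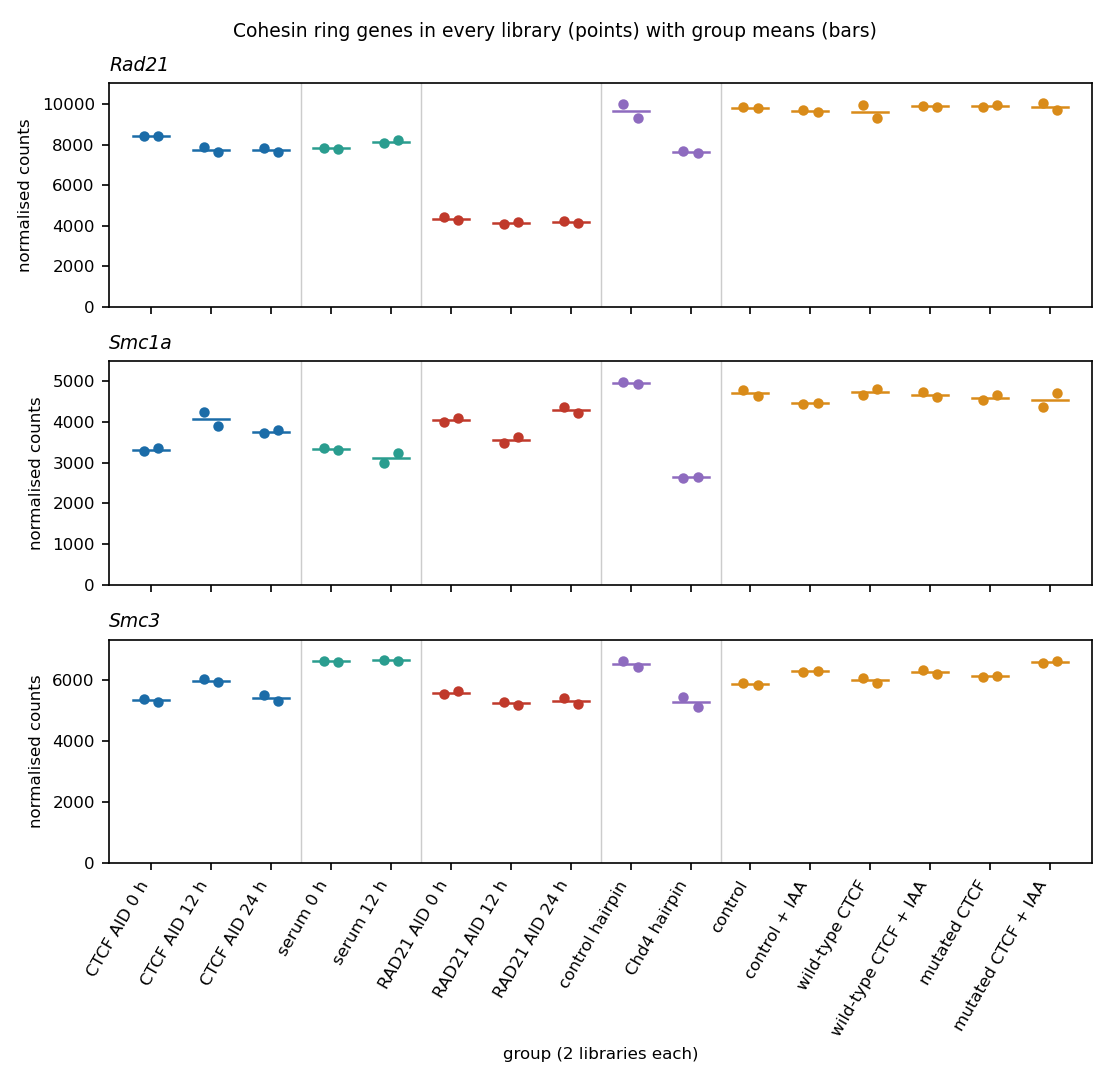
Normalised counts of the ring genes Rad21, Smc1a and Smc3 (panels, top to bottom) in each of the 32 libraries (points) with group means (bars), coloured by table. Rad21 is low in all 6 RAD21 AID libraries, Smc1a drops from 4954 to 2636 under the Chd4 hairpin, and Smc3 stays between 5122 and 6657 in all libraries.

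Nipbl (ENSMUSG00000022141.7, chr15:8290617-8444463, minus strand), the loader, rose at 12 and 24 h of CTCF loss, from 2934 and 2782 to 3355 and 3293 at 12 h and 3316 and 3200.1 at 24 h, by 0.22 (adjusted p = 0.0222) and 0.19 (adjusted p = 0.0304). In serum it went the other way, from 3222 and 3260.3 to 2727 and 2936, -0.20 (adjusted p = 0.0222). In the overexpression table it rose after IAA with wild-type CTCF, from 3757 and 3619 to 4083 and 3948, 0.12 (adjusted p = 0.0292), and with mutated CTCF it exceeded the control without IAA, at 3989.8 and 3879 against 3522 and 3640.0, 0.14 (adjusted p = 0.0479). The RAD21 AID libraries lay between 2667 and 2914 and had no call, except for 24 against 12 h under quantile normalisation, at 0.15 (adjusted p = 0.0489). Each of these Nipbl calls could be lost by leaving out 1 library: without any 1 of the 4 at 12 h of CTCF loss (adjusted p = 0.0568 to 0.13) and for mutated CTCF (0.0832 to 0.21), and in at least 2 of the 4 fits elsewhere (up to 0.161 at 24 h, 0.122 in serum and 0.171 with wild-type CTCF). The libraries that ended the call were 24 h replicate 1 and both 0 h replicates at 24 h, 12 h replicate 1 and 0 h replicate 2 in serum, and both IAA replicates and replicate 2 without IAA with wild-type CTCF. Quantile normalisation ended the limma calls at 12 h (adjusted p = 0.0788), 24 h (0.09), with wild-type CTCF (0.0575) and for mutated CTCF (0.0747). A fit of only the compared groups ended those at 24 h (0.059), with wild-type CTCF (0.085) and for mutated CTCF (0.169). The call for mutated CTCF was also lost without a filter (0.0516) and with a replicate block in the fit (0.0528).

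Wapl (ENSMUSG00000041408.18, chr14:34673928-34747983, plus strand), which opens the ring and releases cohesin, rose at 24 h of CTCF loss, from 5478 and 5282 to 6581 and 5909, 0.21 (adjusted p = 0.0455), and in serum, from 5285 and 5402 to 5943 and 5852, 0.14 (adjusted p = 0.0123). It also rose from 12 to 24 h of RAD21 loss, from 4298 and 4302 to 4832 and 4682, 0.15 (adjusted p = 0.0288). IAA gave values below 0 in the overexpression table, -0.08 (adjusted p = 0.0628) in the control, where the libraries with IAA lay below those without and quantile normalisation called the fall (-0.08, adjusted p = 0.0404). The Chd4 hairpin lowered it from 7797 and 7710.3 to 6493 and 5941, -0.32 (adjusted p = 0.00153), and this held whichever library was left out, while quantile normalisation brought it to -0.16. The ratio of Wapl to Nipbl within a library, on the log2 scale, went in serum from 0.71 and 0.73 to 1.12 and 0.99, and from 1.13 and 1.08 to 0.90 and 0.96 in the overexpression control. It was 0.90 and 0.93 at 0 h and 0.90 and 0.83 at 12 h in CTCF AID cells. It was 1.03 and 0.94 with the control and 0.69 and 0.58 with the Chd4 hairpin. A limma fit of only the compared groups ended the call of Wapl at 24 h of CTCF loss (adjusted p = 0.0645). The 24 h call was lost without 24 h replicate 1 (adjusted p = 0.151), 0 h replicate 1 (0.116) or 0 h replicate 2 (0.193) and under quantile normalisation (0.0787). The serum call was lost without 12 h replicate 1 (0.101) or 2 (0.0722), and that of RAD21 loss without any 1 library (0.061 to 0.134).

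Pds5a (ENSMUSG00000029202.12, chr5:65605721-65698273, minus strand) and Pds5b (ENSMUSG00000034021.15, chr5:150673739-150810690, plus strand) encode related proteins that bind the ring with WAPL. Pds5b was above 0 in all 8 auxin comparisons and rose in 4, by 0.16 (adjusted p = 0.0453) at 12 h of RAD21 loss and by 0.20, 0.17 and 0.19 after IAA in the control, wild-type and mutated cells (adjusted p = 0.0194, 0.0414 and 0.0316). Its control libraries held 2329 and 2270.5 without and 2634 and 2652 with IAA, and its RAD21 AID libraries 2186 and 2176 at 0 h and 2418 and 2460.2 at 12 h. Quantile normalisation ended the limma calls of Pds5b after RAD21 loss (adjusted p = 0.0515), with wild-type (0.0982) and with mutated CTCF (0.0579). A fit of only the compared groups ended the same calls (0.0681, 0.0649 and 0.0813). A replicate block in the fit ended those after RAD21 loss (0.0709) and with wild-type CTCF (0.0525). Pds5a was below 0 in 7 of the 8, but only its fall in serum was called, from 6840.5 and 6566 to 5692 and 5913, -0.21 (adjusted p = 0.00519). Its other values below 0 lay between -0.03 and -0.01, with overlapping libraries. The share of all genes with such counts of signs was not taken. The log2 ratio of Pds5b to Pds5a within a library went from -1.28 and -1.34 without to -1.06 and -1.11 with IAA in the control, and from -1.57 and -1.41 to -1.14 and -1.26 in serum. It went from -1.29 and -1.36 at 0 h to -1.16 and -1.14 at 12 h and -1.26 and -1.24 at 24 h of RAD21 loss. In CTCF AID cells the ratios at 0 h, -1.05 and -1.01, overlapped with those at 12 h, -0.97 and -1.07. Those at 24 h, -0.95 and -0.84, lay above the 0 h values. Between hairpins the ratios overlapped, at -1.46 and -1.26 with the control and -1.35 and -1.35 with the Chd4 hairpin. The Chd4 hairpin lowered both, Pds5a from 7522 and 7316 to 5539 and 5253, -0.46 (adjusted p = 0.000156), and Pds5b from 2737 and 3054 to 2177 and 2063, -0.45 (adjusted p = 0.001), and both falls held whichever library was left out. The auxin calls of Pds5b were lost without any 1 of the 4 libraries after RAD21 loss (adjusted p = 0.127 to 0.177) and with wild-type CTCF (0.059 to 0.229), and in 3 of 4 fits in the control (without IAA replicate 1 or 2, or without the untreated replicate 2; up to 0.0976) and with mutated CTCF (IAA replicate 1 or 2, untreated replicate 1; up to 0.209). The serum call of Pds5a was lost without 12 h replicate 1 (0.0621), and exons of Gm42727 and Gm42729 overlap that gene on the other strand.

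The 5 genes whose levels ran most like those of Ctcf were Ddx43 (r = 0.963), Anp32b (0.935), Zswim7 (0.933), Lman1 (0.929) and Polr2d (0.924), among 9208 genes over 14 libraries. These r were taken across libraries on log2 values centred on the untreated mean of each table, in CTCF AID cells with and without IAA, so they largely restate the response to IAA and carry no p. Ddx43 encodes a DEAD-box helicase, and its difference after 12 h of IAA was 0.59, 0.80 and 0.76 in CTCF AID cells, serum and the overexpression control. Of the 9 other genes of the machinery, Pds5b (r = 0.743, rank 327), Stag1 (0.682, rank 526) and Smc3 (0.621, rank 771) came closest, and Rad21 (-0.09) and Pds5a (-0.16) lay below 0.

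A list of 40 further genes of the pathway covered the loader partner and acetylation cycle, mitotic release, germline forms, condensin, the SMC5/6 complex and other DNA-binding or architectural factors, and 38 or 39 of them were tested per table. After CTCF loss 3 rose and 4 fell of 38 at 12 h, 1 rose and 8 fell of 38 at 24 h and 2 rose and 9 fell of 38 in serum. Of all genes, 9.39% and 8.4%, 11.7% and 10.8% and 7.73% and 9.25% were called higher and lower. After RAD21 loss 5 rose and 5 fell of 39 at 12 h and 1 rose and 5 fell of 39 at 24 h, against 6.66% and 6.35% and 6.54% and 7.16% of all genes. IAA in the overexpression table gave 5 rises and 8 falls in the control, 8 and 4 with wild-type and 3 and 4 with mutated CTCF, of 38. Of all genes, 12.8% and 12.5%, 11.1% and 10.3% and 8.31% and 7.92% were called higher and lower. The list medians in the 5 degradation comparisons lay between -0.08 and -0.01, where those of all genes lay near 0. Under the Chd4 hairpin 9 rose and 21 fell of 39, against 33.5% and 33.8% of all genes, with a list median of -0.26.

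Nsmce4a is a subunit of the SMC5/6 complex, a relative of cohesin. Of the list and the 10, it alone had a response to IAA under overexpression that was called different from the control. It stood at 2309.9 and 2227 at 0 h, 1672 and 1624 at 12 h and 1544 and 1509 at 24 h of CTCF loss, and fell, at -0.46 (adjusted p = 0.00178) and -0.57 (adjusted p = 0.000559). In serum it dropped from 1464 and 1465 to 530.1 and 507, -1.50 (adjusted p = 2.5e-05), and in the overexpression control from 3132 and 2853 to 2072 and 2119, -0.51 (adjusted p = 3.5e-05). With wild-type CTCF the libraries held 2643 and 2646 without and 2760.3 and 2599 with IAA, and with mutated CTCF 2917 and 3027 without and 2860.3 and 2859 with IAA. No such drop was seen in either set of overexpressing libraries, and the response differed from that of the control by 0.53 (SE 0.07, adjusted p = 0.0028) with wild-type and 0.46 (SE 0.07, adjusted p = 0.00592) with mutated CTCF. RAD21 loss gave 3144 and 2988 at 0 h, 3079 and 3037 at 12 h and 2465 and 2511 at 24 h, and the fall at 24 h was -0.30 (adjusted p = 0.00664). All of these calls held whichever library was left out.

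Other genes of the list were called in 1 or more comparisons. Patz1, a zinc finger factor, rose after CTCF loss by 0.35 (adjusted p = 0.00264) at 12 h and 0.51 (adjusted p = 0.000457) at 24 h, and after IAA in the overexpression control by 0.32 (adjusted p = 9.4e-05) and with mutated CTCF by 0.19 (adjusted p = 0.00419), all of which held whichever library was left out. Adnp, a homeobox factor of the ChAHP complex with CHD4, fell after RAD21 loss from 611 and 769.8 to 355 and 493 at 12 h and 338 and 349 at 24 h, at -0.71 (adjusted p = 0.0418) and -0.996 (adjusted p = 0.0139). These falls were lost in 3 of the 4 fits that left out 1 library at each time (adjusted p up to 0.179 and 0.0789; 12 h replicate 1, 0 h replicate 1 or 0 h replicate 2, and 24 h replicate 1, 24 h replicate 2 or 0 h replicate 2), and exons of Gm20716 overlap Adnp on the same strand. Adnp also fell in serum, at -0.43 (adjusted p = 0.00135), and rose after IAA with wild-type CTCF, by 0.60 (adjusted p = 0.0362), and the rise was called in 0 of the 4 fits that left out 1 library. Ncapg2, a condensin II subunit, fell at 24 h of both losses, at -0.50 (adjusted p = 0.00189) and -0.72 (adjusted p = 0.00824), and held whichever library was left out. Under the Chd4 hairpin the largest differences besides Chd4 itself, -1.45 (adjusted p = 5e-06), among genes above the filter in both groups were those of the securin gene Pttg1, -1.88 (adjusted p = 7e-06), and the shugoshin gene Sgo2a, -1.38 (adjusted p = 3.2e-06). Ctcfl, the germline relative of Ctcf, held 3.38 and 8.3 with the control, below the filter, and 101 and 96.1 with the Chd4 hairpin. It was tested only through the latter libraries, so its call is a description and no support. Exons of Ctcflos overlap Ctcfl, and those of Kctd18 overlap Sgo2a, on the other strand. Mau2, the partner of Nipbl in the loader, was picked after its values were seen: it rose from 810.1 and 816 to 2025 and 2069.8, 1.33 (adjusted p = 5.7e-06), while Nipbl stood at 3825 and 4008 with the control and 4025 and 3979 with the Chd4 hairpin.

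The other genes of the list with the largest called differences had adjusted p of 0.000241 to 0.0497 by limma. The securin gene Pttg1 fell by 0.55 at 12 h of CTCF loss, the meiotic ring gene Smc1b by 0.79 at 24 h and the acetyltransferase gene Esco2 by 0.46 in serum. The remodeller gene Chd8 rose by 0.43 at 12 h. After RAD21 loss Nsmce3, a subunit of SMC5/6, fell by 0.64 at 12 h and 0.56 at 24 h. The sororin gene Cdca5 and Pttg1 each rose by 0.29 at 12 h. From 12 to 24 h of RAD21 loss the meiotic kleisin gene Rec8 rose by 1.14, and Maz, Zfp143 and Chd4 fell by 0.41, 0.35 and 0.33. Rec8 also fell by 0.53 in serum, and Ncapg2 by 0.55 from 12 to 24 h of CTCF loss. After IAA in the overexpression table Nsmce2, of SMC5/6, fell by 0.38 in the control, 0.38 with wild-type and 0.24 with mutated CTCF. The meiotic gene Stag3 fell by 0.45 and 0.57 with wild-type and mutated CTCF. There Smc1b fell by 0.31 in the control, Chd8 rose by 0.41 with wild-type and Chd4 by 0.15 with mutated CTCF. Without IAA, Brd2 rose by 0.22 with mutated CTCF against the control and by 0.26 against wild-type CTCF, Maz by 0.18 against wild-type CTCF, and Smc1b fell by 0.47 against the control. The calls that held whichever library was left out were those of Pttg1 at 12 h of CTCF loss, Esco2 in serum, Maz and Chd4 from 12 to 24 h of RAD21 loss, Nsmce2 in the control and with wild-type CTCF, Stag3 in both, and Brd2 against wild-type CTCF. The others were lost in at least 2 of the 4 fits that left out 1 library, and that of Smc1b in the overexpression control also in 6 of 8 other settings. Quantile normalisation ended both calls of Chd8 and that of Maz against wild-type CTCF. A fit of only the compared groups ended those of Nsmce2 with mutated CTCF, of Smc1b and Brd2 against the control, of Maz and of Ncapg2 from 12 to 24 h. Exons of AA474408 overlap Zfp143, those of Gm26590 overlap Chd8, those of H2-DMa overlap Brd2 and those of Gm12592 overlap Patz1, each on the other strand.

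**Figure D5:**
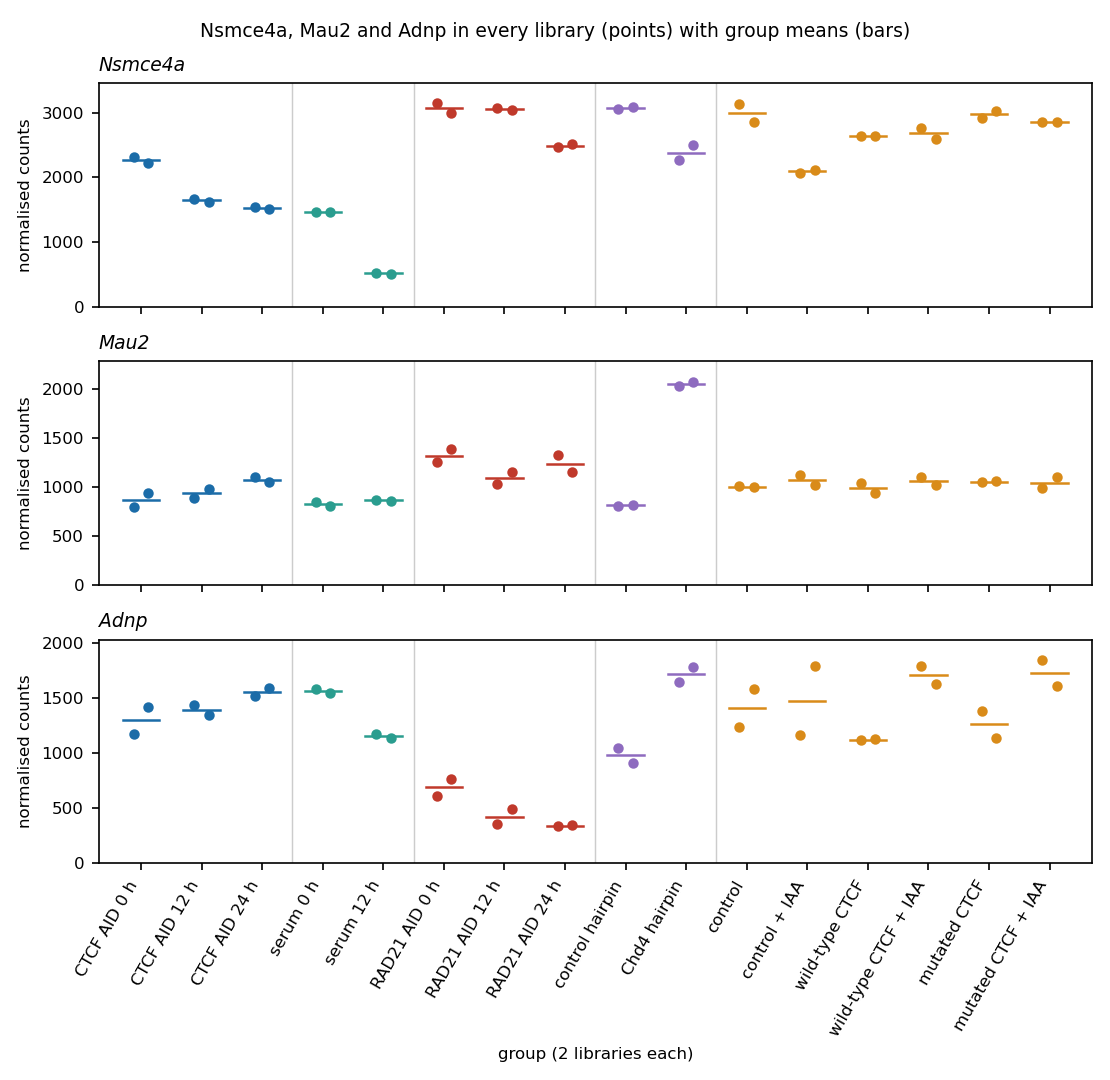
Normalised counts of Nsmce4a, Mau2 and Adnp (panels, top to bottom) in each of the 32 libraries (points) with group means (bars), coloured by table. Nsmce4a drops after IAA in serum, from 1464 to 519, but not in the libraries overexpressing CTCF, Mau2 is highest under the Chd4 hairpin, and Adnp is lowest in the RAD21 AID libraries.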

How the data were processed

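The deposited values are the authors' normalised counts per gene, a signal that is never negative, in 5 tables that were scaled separately. The submitters' processing notes name mm10, Trim Galore, Bowtie2, STAR, RSEM and DESeq2, with no version, role or order. Low values did not resolve into whole reads, so depth is unknown and no counting interval is given. Groups follow the sample titles. limma 3.58.1 in R 4.3.3 (linear model per gene, eBayes with trend) was fitted on log2(value + 1) over all groups of a table and all genes with a table mean of at least 10, with Benjamini-Hochberg adjustment. The fits were also run on simulated whole counts with the same spread setting for every gene. Those counts differ from the deposited values, so they do not check the calls reported here. An exact permutation test of 2 against 2 libraries cannot go below p = 0.333 and was not used. The 10 genes and all lists were chosen with earlier results of these data known. All 10 genes are named, and of the related list the called genes of largest difference, up to 4 per comparison; any other is said to have been picked after its values were seen. IDs were matched to GENCODE gene models. A last incomplete line of the CTCF degradation table was left out. Alternatives changed the pseudocount, the filter, the normalisation, the groups in the fit, the replicate block and the libraries.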

Additional observations from a re-analysis of the deposited data

Results flagged for a closer look

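Several genes moved one way in every treated library of 1 culture and the other way in every treated library of another. These differences were not tested, since the tables were scaled separately. The share of all genes that do the same was not counted, so the list does not set these genes apart. Of the values given next, limma called Smc1a and Nipbl in CTCF AID cells and Nipbl, Wapl and Pds5a in serum. The others were not called, and only Nipbl was called in opposite directions. Between 12 h of IAA in CTCF AID cells, in serum and in the overexpression control, the log2 differences of Rad21 were -0.1249, 0.0586, -0.0252, those of Smc1a 0.2942, -0.1031, -0.0805, those of Nipbl 0.2185, -0.1958, 0.0958, those of Wapl 0.174, 0.1423, -0.0795, and those of Pds5a 0.1699, -0.2081 in the first and the second. The response of Nsmce4a to IAA differed from that of the control by 0.53055 with wild-type and 0.457114 with mutated CTCF on the log2 scale, by limma's test of the difference (adjusted p = 0.0028 and 0.00592).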

How the results depend on the processing

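No difference of the 10 genes that passed the threshold changed sign under any alternative run. Of 1360 values from the settings that kept all libraries, 1302 kept their direction and their side of the threshold. Of the rest, 30 lost their call, 17 gained one and 11 that were not called changed sign. The 1360 include results not called in the main fit, so this share does not measure how well the calls held. The number of the 10 genes called moved by more than 1.5 times with quantile normalisation at 24 h of CTCF loss (2), 12 h of RAD21 loss (2) and mutated CTCF against control (1), and without a filter in the last of these (1). With only the compared groups in the fit it was 2 at 24 h of CTCF loss, 2 at 12 h and 2 at 24 h of RAD21 loss, 2 after IAA with wild-type and 2 with mutated CTCF, and 1 for mutated CTCF against control. Over all genes that setting called 0 (against 20) between 24 and 12 h of CTCF loss, 2 (125) for wild-type CTCF against control, 186 (774) for mutated CTCF against control, 216 (868) and 91 (314) for mutated against wild-type CTCF without and with IAA, and 123 (197) for the wild-type difference of responses. Grouping by the treatment label called 11 genes for wild-type CTCF against control. The cause was not tested.

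Leaving out 1 library at a time gave these ranges of the 10 genes called: 0 to 2 at 12 h, 0 to 3 at 24 h and 0 to 0 between 24 and 12 h of CTCF loss, 0 to 1, 0 to 1 and 2 to 3 for RAD21 loss, 1 to 6 in serum, 7 to 9 under the Chd4 hairpin, 2 to 4, 2 to 3 and 2 to 3 after IAA in the control, wild-type and mutated cells, 1 to 1 and 1 to 3 for wild-type and mutated CTCF against control, 0 to 1 and 0 to 0 for mutated against wild-type CTCF, and 0 to 0 and 0 to 0 for the differences of responses. Over all genes the ranges were 1007 to 1096, 1499 to 2300 and 1 to 10 for CTCF loss, 554 to 624, 687 to 885 and 892 to 1137 for RAD21 loss, 812 to 1909 in serum, 7384 to 10096 under the hairpin, 2357 to 2629, 1701 to 2067 and 1202 to 1456 after IAA, 59 to 76, 321 to 394, 360 to 479 and 66 to 91 for the CTCF forms, and 101 to 164 and 148 to 188 for the differences of responses. A group left with 1 library was assumed to vary like the others.

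Replicate numbers did not pair the samples: same-numbered libraries had correlations of deviations of -0.02 to 0.06 in the CTCF, -0.01 to 0.03 in the RAD21, 0.03 in the hairpin and -0.13 to 0.15 in the overexpression table, 1 of 15 pairs there being over 0.1. With the replicate block, 8 of the 10 genes were called at 12 h and 4 at 24 h of CTCF loss. It called 2 at 12 h of RAD21 loss, 6 in serum and 3 after IAA with wild-type CTCF. Over all genes it called 2382 and 3073 of 13699, 1374 of 13738, 2812 of 14494 and 2926 of 13938 in the same order. Between 24 and 12 h of CTCF loss it called 0 of all genes. The block also called Rad21, Wapl and Pds5a at 12 h of CTCF loss (adjusted p = 0.0425, 0.0298 and 0.0384) and Stag2 in serum (0.00965). In serum the correlation was -0.16, and with the numbers crossed, a choice made after seeing the data, 6 of the 10 were called. Over all genes the crossed numbers called 2174 of 14494.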
